A study of Mus musculus with 8 samples.

Results

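The liver X receptors and the genes they are known for were followed in BMMCs, mast cells obtained by culturing mouse bone marrow. The set was defined by gene symbol and holds 10 of the 24059 symbols counted: the receptors *Nr1h2* and *Nr1h3*, the cholesterol export genes *Abca1*, *Abcg1*, *Apoe*, *Pltp* and *Arl4c*, and the further LXR targets *Mylip*, *Lpcat3* and *Smpdl3a*. All 10 were listed in every sample, and 8 had enough reads to be tested. RNA sequencing compared 4 samples that received Cas9 ribonucleoproteins (RNPs) with guides against *Zc3h12a*, the gene of the RNase Regnase-1 (labelled *Zc3h12a* KO), with 4 samples that received a scrambled guide (labelled *Zc3h12a* WT). All were C57BL/6 BMMCs from mice aged 6 to 8 wk, differentiated with IL-3 for at least 4 wk, electroporated and kept in culture for 1 wk, with no stimulus named for these samples. The *Zc3h12a* RNPs carried 3 guides, and each sample is a bulk culture, not a clone, so edited and unedited cells are measured together. The cells came from 4 mice, and samples with the same replicate number were treated as a pair.

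LXRα (*Nr1h3*) and LXRβ (*Nr1h2*) are nuclear receptors that bind oxysterols and other sterols and, as partners of a retinoid X receptor, switch on genes that move cholesterol out of the cell. ABCA1 and ABCG1 are membrane transporters that hand cholesterol to lipoprotein particles, apolipoprotein E accepts it, and PLTP transfers phospholipid between particles. MYLIP, also called IDOL, is a ubiquitin ligase through which LXRs lower lipoprotein uptake. This pathway is best known from macrophages, which take up large amounts of lipid.

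Total counts per sample ran from 19610240 to 33986762. Scrambled RNP replicates 2 and 4, with the most and the fewest reads, lay at the ends of the first principal component, which held 65.7% of the variance. These samples also differed in the reads on 243 sensory receptor genes (vomeronasal, trace amine and bitter taste receptors), which are best known from sensory cells and were taken as a background. This level was 0.0112 CPM per kilobase of exon (CPM are read counts scaled to library size) in scrambled RNP replicate 2 and 0.139 in replicate 4, a 12.4-fold range, with the other samples between 0.0351 and 0.0960. Most mast cell genes were abundant, with a summed level of 54232 to 66637 CPM for 14 markers. *Cpa3* had the highest mean, 29490 CPM, while *Tpsab1* and *Mrgprb1* had means of 0.041 and 0.549 CPM. In contrast, 14 macrophage markers summed to 11.5 to 15.4 CPM. *Lyz2* and *Adgre1* had the highest means of these, 5.33 and 3.08 CPM, and the C1q genes and *Csf1r* were at or near 0. By group, the macrophage sum ran from 11.95 to 14.02 CPM with scrambled RNP and from 11.5 to 15.4 CPM with *Zc3h12a* RNP, and the part of these cells in the results was not tested. In bulk samples, fewer cells that express a gene and less of its RNA per cell cannot be told apart. The targeted *Zc3h12a* mRNA was at 24.9, 38.0, 37.1 and 39.3 CPM in scrambled RNP replicates 1 to 4 and at 26.8, 41.1, 32.2 and 32.6 CPM in *Zc3h12a* RNP replicates 1 to 4. The groups overlapped (log2 fold change -0.064, standard error 0.097, edgeR), so this mRNA does not check the labels.

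The levels of the genes were compared per kilobase of exon, on CPM scaled by the TMM method, which adjusts each library for its composition. *Arl4c*, a small GTPase of the ARF family known as an LXR target in cholesterol transport to the cell surface, had the highest level, at 37.6 ± 12.6 CPM per kilobase (SD, n = 8). *Nr1h2*, *Mylip* and *Lpcat3* followed at 24.1 ± 2.10, 23.0 ± 7.23 and 21.2 ± 2.39 CPM per kilobase. Over the 8 samples, which pool both groups, these neighbours did not differ beyond their spread: *Nr1h2* was above *Mylip* in 5 of 8, and *Mylip* above *Lpcat3* in 4 of 8. The order of *Nr1h2* and *Mylip* changed with the group. Their means were 24.3 ± 2.21 and 27.7 ± 6.25 CPM per kilobase in scrambled RNP samples. In *Zc3h12a* RNP samples they were 23.8 ± 2.29 and 18.3 ± 4.93 (SD, n = 4). *Apoe* was at 15.7 ± 9.25 and *Abcg1* at 6.54 ± 2.71 CPM per kilobase, in that order in 7 of 8 samples. *Smpdl3a* and *Abca1* were more than 10 times lower, at 0.450 ± 0.214 and 0.429 ± 0.238 CPM per kilobase, and neither was consistently the higher of the pair (4 of 8 samples). Among the genes tested, *Arl4c* stood at the 94.3rd percentile of level and *Abca1* at the 24.3rd.

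**Figure D1:**
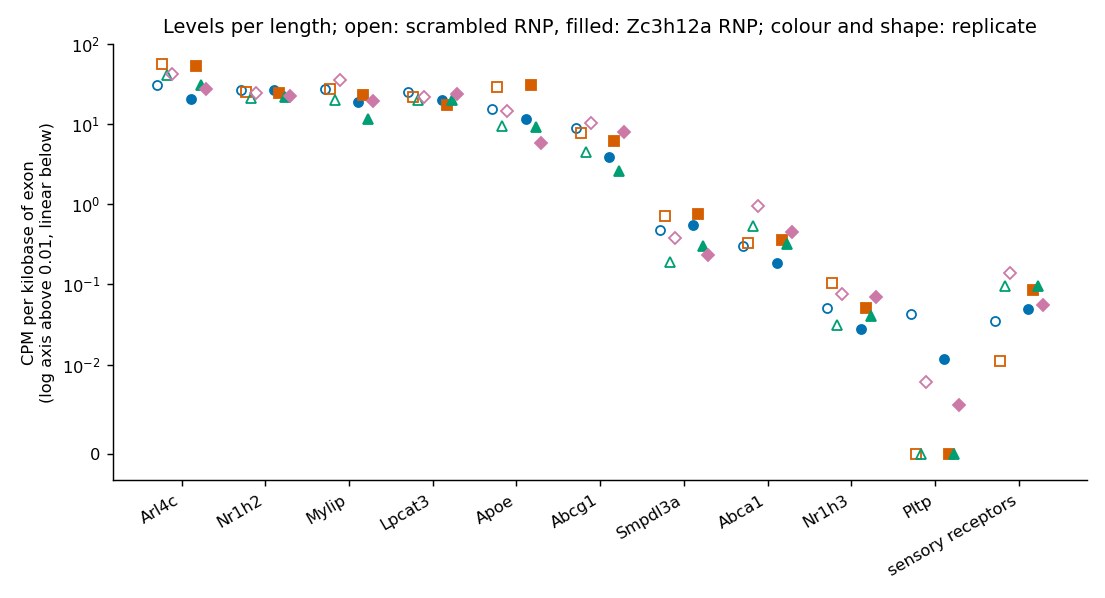
CPM per kilobase of exon in each sample for the 10 genes and, at the right, for the sum over 243 sensory receptor genes, on an axis that is logarithmic above 0.01 and linear below. Open symbols are scrambled RNP and filled symbols *Zc3h12a* RNP samples, with 1 colour and shape per replicate number. *Arl4c*, *Nr1h2*, *Mylip*, *Lpcat3*, *Apoe* and *Abcg1* lie above 1 in every sample, while *Nr1h3* overlaps the sensory receptors.

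The 2 receptors were far apart. *Nr1h2* had 2890, 2597, 1868 and 1794 reads in scrambled RNP replicates 1 to 4 and 2666, 1973, 1832 and 2375 in *Zc3h12a* RNP replicates 1 to 4. *Nr1h3* had 8, 16, 4 and 8 reads, and 4, 6, 5 and 11 reads, in the same order. Per kilobase, *Nr1h2* had 237 to 974 times the reads of *Nr1h3* over the 8 samples. *Nr1h3* took 0.150% to 0.612% of the reads of both receptors, and the exact 95% binomial interval of the highest of these values was 0.350% to 0.992%. Such intervals cover counting error only. Per kilobase, *Nr1h3* lay above the level of the sensory receptor genes in 3 of 8 samples, so that at this depth it was not detectable beyond that background in the other 5. The ratios are therefore of reads and not of transcripts.

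*Nr1h2* had a small spread between samples. It was at 91.6, 86.5, 73.6 and 85.4 CPM in scrambled RNP and 92.4, 85.5, 75.3 and 77.1 CPM in *Zc3h12a* RNP replicates 1 to 4. The groups overlapped, with 2 pairs higher and 2 lower. For *Nr1h2* the fitted log2 fold change after *Zc3h12a* RNP was -0.029 (standard error 0.076, 95% interval -0.21 to 0.15, adjusted p = 0.964, edgeR). The ratio of *Nr1h2* to *Nr1h3* reads was 0.37 ± 0.68 higher on the log2 scale with *Zc3h12a* RNP (SD, n = 4 pairs). In an exact two-sided test 8 of 16 sign assignments gave a difference at least this large (p = 0.5), and with 4 pairs no fewer than 2 of 16 can do so. This ratio rests on the few *Nr1h3* reads and includes their background, so it says little of the receptors. *Nr1h3* itself had too few reads for a test.

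Among the 8 tested genes, 0 passed a log2 fold change beyond 0.5 and an adjusted p at or under 0.05 after *Zc3h12a* RNP, and 0% of all 14934 genes tested did so (edgeR, quasi-likelihood test blocked on the replicate number, adjusted by Benjamini-Hochberg). With an unadjusted p of 0.05 or less, 4 of the 8 were lower (*Mylip*, *Abcg1*, *Arl4c* and *Abca1*) and 0 were higher, where 6.17% of all genes had such a p, 4.05% lower and 2.12% higher. With DESeq2 5 of the 8 were lower at such a p, as were 3.33% of all genes, and 2, *Abcg1* and *Mylip*, passed both thresholds as lower, as did 0.348% of all genes. The median log2 fold change of the 8 genes was -0.41, and 7 of them were below 0, against a median of 0.038 and 42.2% below 0 over all genes tested. *Mylip*, *Abcg1* and *Abca1* were below -0.5, as were 1.81% of all genes. *Abcg1*, *Arl4c* and *Mylip* were lower in all 4 pairs, as were 8.54% of all genes. For 0 of the 8 did every *Zc3h12a* RNP sample lie below every scrambled RNP sample, which 0.663% of all genes showed. The genes were chosen with earlier results of these samples known, and these shares are a description.

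**Figure D2:**
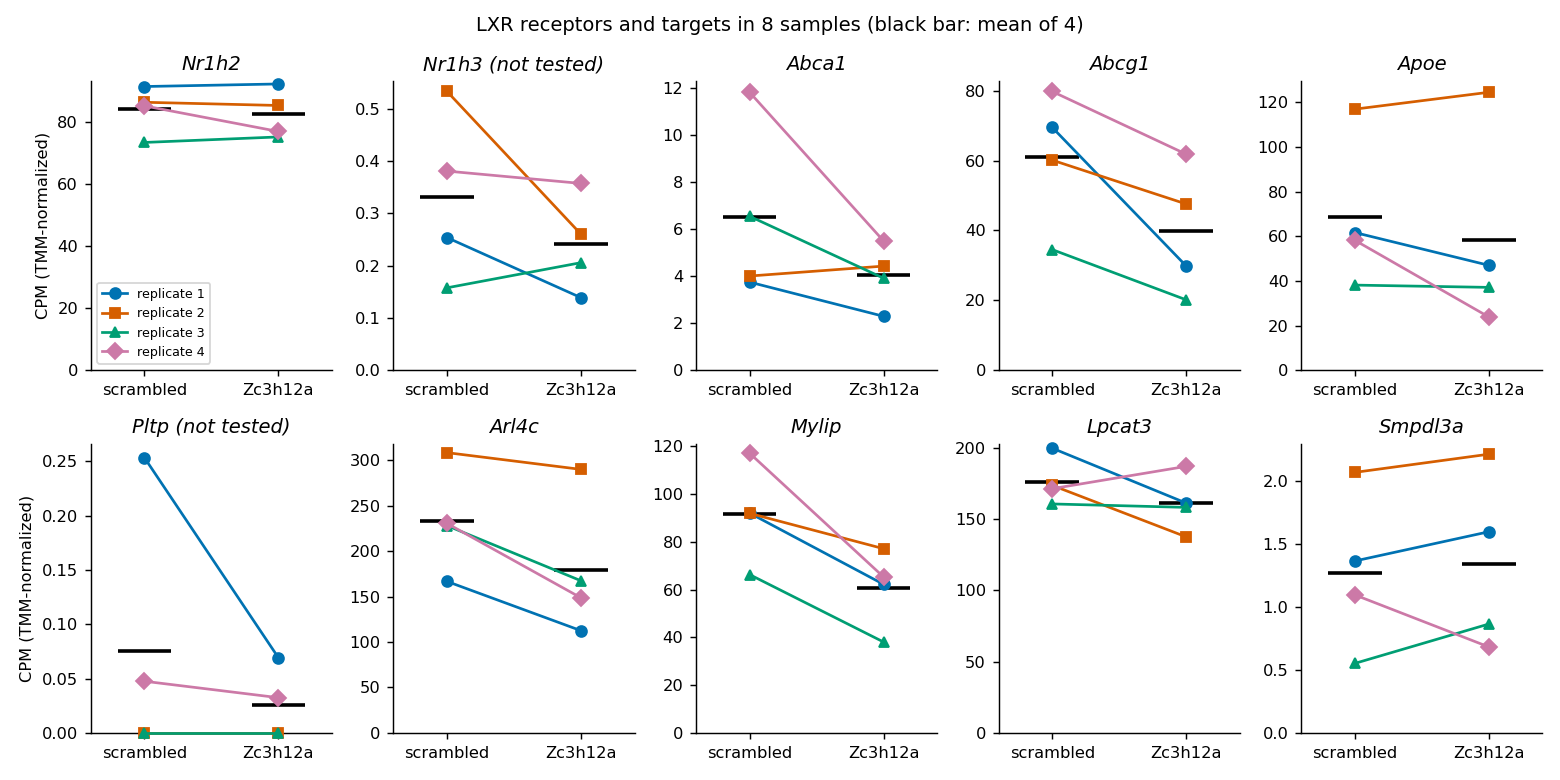
TMM-normalized CPM (vertical axis, from 0) of the 10 genes in scrambled RNP and *Zc3h12a* RNP samples, with a line joining samples of a replicate number and a black bar for the mean of 4. The lines of *Abcg1*, *Arl4c* and *Mylip* all slope down, while those of *Nr1h2* are nearly flat.

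The cholesterol transporters were among the lowest values. *Abcg1* (chromosome 17, 31276649 to 31336969, GRCm39) was at 69.5, 60.1, 34.5 and 79.8 CPM in scrambled RNP replicates 1 to 4 and at 29.8, 47.6, 20.1 and 61.8 CPM in *Zc3h12a* RNP replicates 1 to 4. Replicate 3 was lowest and replicate 4 highest in both groups, and the groups overlapped. The means were 61.0 ± 19.4 and 39.8 ± 18.5 CPM (SD, n = 4), and the fit gave a log2 fold change of -0.67 (standard error 0.15, 95% interval -1.02 to -0.32, unadjusted p = 0.00255, adjusted p = 0.449 in edgeR's test). Pair 1 had a difference of -1.22 on the log2 scale, against -0.34, -0.77 and -0.37 in pairs 2 to 4. Without replicate 1 the fitted value of *Abcg1* was -0.45 (adjusted p = 1, edgeR), short of the 0.5 threshold. Without replicate 2 *Abcg1* passed both thresholds (-0.72, adjusted p = 0.00699).

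*Abca1* (chromosome 4, 53030787 to 53159900) rested on far fewer reads, 118 to 248 in scrambled RNP and 66 to 169 in *Zc3h12a* RNP samples. It was at 3.74, 4.00, 6.54 and 11.8 CPM in scrambled RNP and 2.29, 4.42, 3.91 and 5.49 CPM in *Zc3h12a* RNP replicates 1 to 4. The differences on the log2 scale were -0.69, 0.14, -0.73 and -1.09 in pairs 1 to 4, so that 3 pairs were lower. Over all pairs the fit put *Abca1* at a log2 fold change of -0.61 (standard error 0.26, 95% interval -1.21 to -0.0044, unadjusted p = 0.0487, adjusted p = 0.798 in edgeR's test). It was -0.79 without replicate 2 and -0.43 without replicate 4. The sensory receptor level per kilobase amounted to 3.43% of the *Abca1* level in scrambled RNP replicate 2 and to 30.2% in *Zc3h12a* RNP replicate 3. When that level was subtracted in each sample, all 4 pairs of *Abca1* were lower, with differences of -0.98, -0.20, -0.98 and -1.07 and a mean that moved from -0.60 to -0.81. Pair 2 changed sign, where that level was 3.43% of *Abca1* in the scrambled RNP and 23.9% in the *Zc3h12a* RNP sample. The subtraction was chosen after values were seen. It takes the background on *Abca1* exons as equal to the sensory receptor level, which was not tested. For *Abcg1* the same level was at most 3.67% of the gene's own, and its mean difference moved from -0.68 to -0.69.

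LXR with its partner binds a pair of AGGTCA half-sites in tandem with a gap of 4 bases, known as a DR4 element. The 250 bases before the start of the principal annotated transcript of *Abca1* (chr4:53159901-53160150, GRCm39, minus strand) are shown because *Abca1* is the textbook case of such a promoter, with the 16 bases closest to the letters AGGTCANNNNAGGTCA in capitals.
*Abca1*: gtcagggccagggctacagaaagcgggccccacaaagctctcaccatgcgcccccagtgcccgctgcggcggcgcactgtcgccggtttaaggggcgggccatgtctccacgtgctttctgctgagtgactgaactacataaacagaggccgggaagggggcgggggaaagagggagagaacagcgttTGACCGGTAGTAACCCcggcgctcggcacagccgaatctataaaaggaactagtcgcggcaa
The capitals read on the opposite strand and begin 62 bases before the start, with 3 of 12 half-site bases unlike the consensus. Of 21738 protein-coding genes, 20.9% had a match this close on either strand from 250 bases before to 50 after the start, and 2 of the 10 genes did, *Abca1* and *Lpcat3*. The stretch around the closest match of *Lpcat3* (chr6:124639648-124639707, plus strand) is shown beside it, again with 3 mismatches. *Mylip* was the 1 gene of the set with a match of at most 1 mismatch within 10000 bases of its start, which 18.7% of all genes had. The *Mylip* match begins 2468 bases upstream, within the stretch shown (chr13:45540726-45540785, plus strand). In both stretches the capitals also read on the opposite strand.
*Lpcat3*: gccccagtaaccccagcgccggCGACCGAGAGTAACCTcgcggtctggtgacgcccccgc
*Mylip*: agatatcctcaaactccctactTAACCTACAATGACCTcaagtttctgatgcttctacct
At 2 mismatches, 9 of the 10 genes and 89.5% of all genes had a match in the wider window. A match this common cannot set 10 genes apart, and whether LXR binds any of these letters was not tested.

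*Mylip* had the lowest p of the group. It lies on chromosome 13 from 45543215 to 45565501 and was at 92.0, 91.9, 66.3 and 117 CPM in scrambled RNP and 62.2, 77.1, 38.0 and 65.2 CPM in *Zc3h12a* RNP replicates 1 to 4. All 4 pairs were lower, and the groups overlapped by 1 sample of each: scrambled RNP replicate 3 lay below *Zc3h12a* RNP replicate 2. The fitted log2 fold change was -0.61 (standard error 0.11, 95% interval -0.88 to -0.35, unadjusted p = 0.000731, adjusted p = 0.401 in edgeR's test). The differences per pair were -0.56, -0.25, -0.80 and -0.84 on the log2 scale. Without replicate 2 *Mylip* passed both thresholds (-0.67, adjusted p = 0.0157).

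*Arl4c* (chromosome 1, 88600847 to 88629943) was at 167, 308, 228 and 230 CPM in scrambled RNP and 112, 290, 167 and 149 CPM in *Zc3h12a* RNP replicates 1 to 4. Replicate 2 was highest in both groups and had the smallest difference, -0.089 on the log2 scale, beside -0.57, -0.45 and -0.63 in pairs 1, 3 and 4. For *Arl4c* the fit gave -0.43 (standard error 0.11, 95% interval -0.68 to -0.19, unadjusted p = 0.00395, adjusted p = 0.465 in edgeR's test). *Arl4c* stayed above -0.5 in the fit with all samples, so it could not be called at any p, and the groups overlapped. In DESeq2's test *Arl4c* had an adjusted p of 0.00845 at a log2 fold change of -0.45. With the replicate effect removed before limma-trend these were 0.0250 and -0.43, where the p-values are too small because the removed replicate terms are not counted. In every other setting the adjusted p of *Arl4c* was 0.232 or more, the lowest being without replicate 2 (edgeR).

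*Apoe*, the apolipoprotein, ranged widely within each group. It was at 61.7, 117, 38.2 and 58.2 CPM in scrambled RNP and 47.0, 125, 37.1 and 23.9 CPM in *Zc3h12a* RNP replicates 1 to 4, a 3.07-fold and a 5.22-fold range. Replicate 2 was the highest in both groups, and the groups overlapped. Its log2 fold change of -0.39 (standard error 0.21, 95% interval -0.88 to 0.095, adjusted p = 0.912 in edgeR's test) rested on pair 4, with a difference of -1.28, and was -0.11 without replicate 4. *Apoe* lies on chromosome 7 from 19430034 to 19434947, and 12.9% of its exon bases are shared with a long non-coding gene on the other strand.

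*Lpcat3* encodes an acyltransferase that builds polyunsaturated phospholipids. It was at 200, 174, 161 and 171 CPM in scrambled RNP and 161, 138, 158 and 187 CPM in *Zc3h12a* RNP replicates 1 to 4, and its groups overlapped in part: *Zc3h12a* RNP replicates 2 and 3 lay below every scrambled RNP sample, and scrambled RNP replicate 1 lay above every *Zc3h12a* RNP sample. Its log2 fold change was -0.14 with a 95% interval of -0.37 to 0.10 (edgeR), and it ran from -0.23 without replicate 3 to -0.033 without replicate 1 and -0.0070 without replicate 2. Of its annotated exon bases 53.8% are also exon of *Emg1* on the opposite strand, and the strand setting of the counting is not given in the sources used here, so *Lpcat3* is uncertain in level and change.

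*Smpdl3a*, a phosphodiesterase of the acid sphingomyelinase family, had 14 to 62 reads in scrambled RNP and 21 to 51 in *Zc3h12a* RNP samples. It was at 1.36, 2.07, 0.551 and 1.09 CPM in scrambled RNP and 1.60, 2.21, 0.864 and 0.682 CPM in *Zc3h12a* RNP replicates 1 to 4. Pairs 1 to 3 were higher and pair 4 lower, and the 95% interval of its log2 fold change ran from -0.99 to 1.14 (estimate 0.072, edgeR). The sensory receptor level was up to 49.7% of the *Smpdl3a* level. Subtracting it, under the same untested assumption, moved the mean difference from 0.072 to 0.21, with pair 2 at -0.053 and pair 3 at 1.08. *Pltp* had 8, 0, 0 and 1 reads in scrambled RNP and 2, 0, 0 and 1 reads in *Zc3h12a* RNP samples and could not be tested. It lay above the sensory receptor level in 1 of 8 samples, and 21.2% of its exon bases overlap *Ctsa*, a lysosomal gene with many reads on the other strand.

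**Figure D3:**
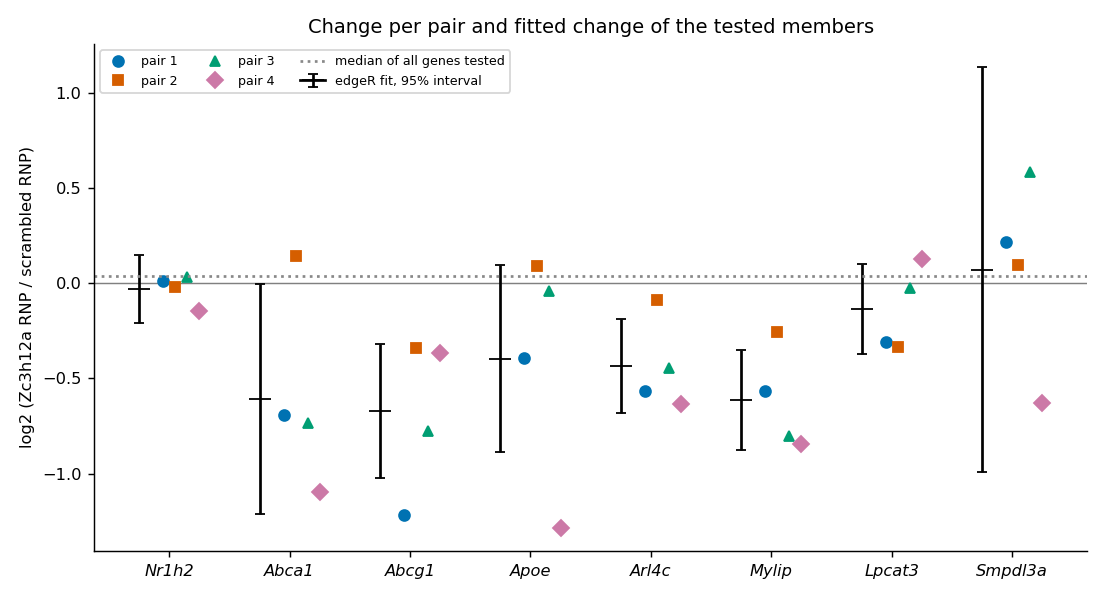
Difference of log2 CPM between *Zc3h12a* RNP and scrambled RNP in each pair (coloured symbols) and the fitted log2 fold change with its 95% interval (black) for the 8 tested genes. The dotted line is the median of all genes tested, 0.038, and only the intervals of *Abca1*, *Abcg1*, *Arl4c* and *Mylip* stay below 0.

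The pairs differed in which gene moved most. Pair 1 had its largest difference in *Abcg1*, pair 3 in *Mylip* and pair 4 in *Apoe* and *Abca1*. In pairs 1 to 4 the median log2 difference over the 8 genes was -0.48, -0.053, -0.24 and -0.63, against 0.027, 0.0089, 0.0076 and -0.059 over all genes tested. Pair 2, which holds the scrambled RNP sample at one end of the principal component, had the median nearest to 0, with *Abcg1*, *Mylip* and *Lpcat3* at -0.34, -0.25 and -0.34. Whether the depth or the background signal of that library has a part in this was not tested.

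The calls depended on the test and the samples. *Abcg1* and *Mylip* were also past both thresholds when the replicate effect was removed before limma-trend (0.529% of all genes called lower) and when replicate 2 was left out (0.378%), and *Abcg1* alone with no low-count filter (0.132%). The fit after that removal does not count the replicate terms already taken out, so its p-values are too small. *Abcg1* had an adjusted p of 0.0275 there and 0.423 in blocked limma-trend, at a log2 fold change of -0.67 in both. None of the 8 genes passed both with limma-trend (0.0067% of all genes called lower), DESeq2 size factors (0.0067%), upper-quartile factors (0%), a minimum of 10 counts in every sample (0.0252%) or no replicate block (0%). Leaving out replicate 1 (0%), 3 (0%) or 4 (0.0134%) also gave no call among them. With an unadjusted p of 0.05 or less, 1 of the 8 was lower with no replicate block (0.596% of all genes). Without replicate 1, 2, 3 and 4 the number was 2 (0.927%), 5 (1.72%), 4 of 9 (3.23%) and 3 (2.63%).

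**Figure D4:**
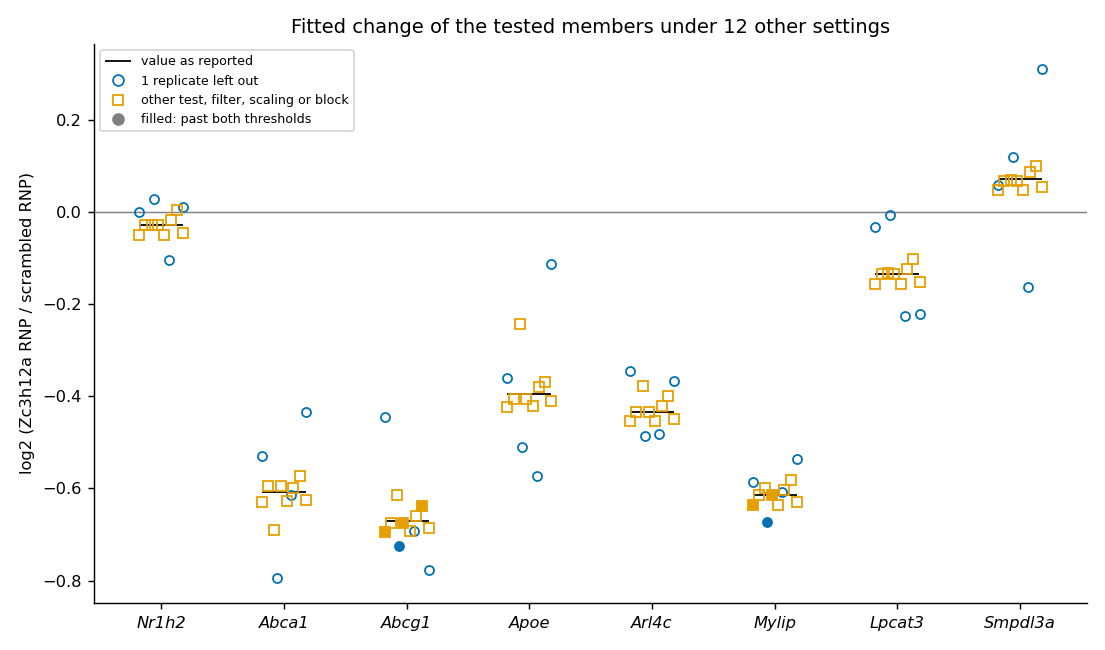
Fitted log2 fold change of each tested gene with all samples (black bar), without 1 replicate (circles) and with another test, filter, scaling or block (squares), filled where both thresholds were passed. *Abcg1* and *Mylip* are the genes with filled symbols, and each is below 0 under all 12 settings, as are *Abca1*, *Apoe*, *Arl4c* and *Lpcat3*.

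Genes around the pathway were taken as 5 lists with 49 tested genes of 62. Of these, 0 passed both thresholds in edgeR's test and 1, *Scd1*, in DESeq2's. In DESeq2's test 0.348% of all genes were called lower. With an unadjusted p of 0.05 or less 6 of the 49 were lower and 0 higher (edgeR), beside 4.05% and 2.12% of all genes, and the median log2 fold change was -0.0095. The 16 partners and cofactors of LXR had a median of -0.025, and 0 of them had an unadjusted p of 0.05 or less in edgeR's, DESeq2's or limma-trend's test, where 4.05%, 3.33% and 4.06% of all genes were lower at that p. Among these, the corepressor gene *Ncor1* and the corepressor subunit *Gps2* had the highest levels per length, with log2 fold changes of -0.11 and -0.14. *Hdac3*, the deacetylase of that corepressor complex, was at 0.14 and the coactivator *Ncoa2* at 0.091, higher in 4 of 4 pairs.

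Among 9 other tested genes known as LXR targets, 5 were lower and 4 higher, with a median of -0.0095. *Scd1*, a desaturase that makes monounsaturated fatty acids, was at 110 ± 52.9 CPM with scrambled and 43.2 ± 29.7 CPM with *Zc3h12a* RNP (SD, n = 4). *Scd1* was fitted at -1.42 ± 0.16 (SE) on the log2 scale (adjusted p = 0.152 with edgeR and 1.32e-14 with DESeq2), and it was lower in 4 of 4 pairs. *Srebf1*, the lipogenic transcription factor, was at -0.22 (standard error 0.095, adjusted p = 0.810 in edgeR's test) and lower in 3 of 4 pairs. *Fasn*, the fatty acid synthase, was at 0.0084 with a standard error of 0.11. *Cd5l* had few reads and a standard error of 0.93 around an estimate of 0.81.

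Enzymes that make or use sterol ligands had a median of -0.10 over 6 tested genes. *Cyp51*, a demethylase of cholesterol synthesis, was at -0.26 (standard error 0.081, adjusted p = 0.656) and *Dhcr7*, the last reductase of that route, at -0.29 (standard error 0.12, adjusted p = 0.772), both lower in 4 of 4 pairs in edgeR's fit. *Hsd3b7*, of bile acid synthesis, was at -0.19.

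Lipoprotein uptake genes had a median of -0.044 over 6 tested genes. *Scarb1*, an HDL receptor, was at -0.14. Among 12 genes of sterol trafficking and storage, with a median of 0.022, *Npc2*, a lysosomal cholesterol carrier, was at -0.27 (adjusted p = 0.705) and *Plin2*, a lipid droplet coat protein, at 0.23 (adjusted p = 0.844, both edgeR). *Npc1*, the membrane partner of *Npc2*, was at 0.11 and the oxysterol-binding protein gene *Osbp* at 0.061.

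**Figure D5:**
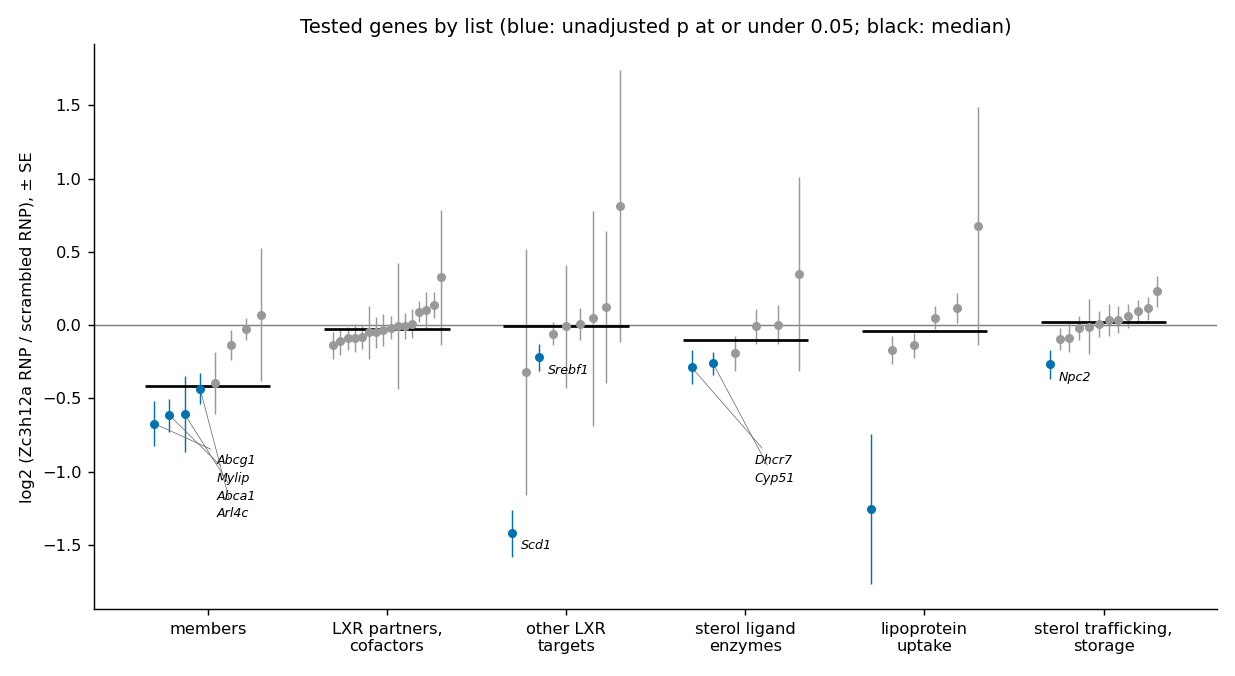
Fitted log2 fold change with its standard error for each tested gene of the set (left) and of the 5 lists, blue where the unadjusted p was at or under 0.05, with the median as a black line. The median of the set is -0.41 and those of the lists lie between -0.10 and 0.022.

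The genes whose log2 CPM, centred over the 8 samples, lay nearest to 3 of the members were also identified by the root mean square difference. For *Abcg1* these were *H1f5*, *S100a4*, *Nat14*, *Gfi1* and *Mylip*, at differences of 0.23 to 0.30 beside a standard deviation of 0.69 for *Abcg1* itself, so *Mylip* ranked 5th of 14933 genes. For *Abca1* they were *Cfap69*, *Fgf10*, *Tnfsf9*, *Tob1* and *Dse* (0.16 to 0.24), and *Abcg1* ranked 3642nd. For *Apoe* they were *Plekhf1*, *Pfn2*, *Ggct*, *Hao1* and *Zswim6* (0.16 to 0.28), with *Smpdl3a* at rank 46. *Cfap69*, *H1f5* and *Hao1* had mean levels under 1 CPM. The transporters *Abca1* and *Abcg1* lay 0.65 apart by this measure: *Abca1* was 3.15-fold higher in scrambled RNP replicate 4 than in replicate 1, where *Abcg1* was at 79.8 and 69.5 CPM.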

How the data were processed

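Raw read counts per gene symbol were deposited for 8 BMMC samples. The authors made these counts from poly(A) libraries read as paired ends, mapped with HISAT2 2.2.1 to GRCm39 and counted with featureCounts 2.0.1. The strand setting and the handling of reads with several matches are not given in the sources used here, so reads of overlapping or antisense genes cannot be separated. The methods name a batch removal, which these whole numbers do not carry. The main test was that of edgeR 4.0.16 under R 4.3.3 (filterByExpr, TMM, quasi-likelihood test, replicate number as a block), and p-values were adjusted by Benjamini-Hochberg over 14934 genes. Standard errors are the log2 fold change divided by the root of F. Log2 CPM used a prior count of 2. Calls needed both an adjusted p of 0.05 or less and a log2 fold change outside ±0.5. The test was checked on simulated counts, with genes counted as found at an adjusted p of 0.05 or less. It found 93.5% of 199 genes shifted by 1 on the log2 scale at a dispersion of 0.01, and 79.5% of 195 at 0.04 (15032 and 15013 genes run). Of genes shifted by 0.5 it found 60.4% of 197 and 4.5% of 200 at those dispersions (15010 and 15005 genes run). The simulated samples shared 1 mean profile and 1 dispersion for all genes, with no replicate effect and no varying background. These shares therefore do not give the power of the test in the real samples.

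Pairing comes from the study's 4 mice; the labels do not state that a number marks a mouse. Deviations from the group means of same-numbered samples correlated at 0.595, 0.0752, 0.624 and 0.0414 over all genes tested, where samples of different numbers reached 0.398, and scrambled RNP replicates 2 and 4 each correlated best with another number (0.398 and 0.350), and at 0.717 to 0.756 over 9668 genes with a mean log2 CPM above 2, where samples of different numbers reached at most 0.137. Replicates differed by more than sampling noise (chi-square per degree of freedom at least 59.2). Positions, exon lengths and sequences are from GENCODE vM39 and GRCm39. The genes of the set, the lists and the alternatives were chosen with earlier results of these data known. The text names the set, *Zc3h12a*, from each list the 3 lowest p and the 2 highest levels per length, and the 5 nearest profiles of 3 genes; some genes that this rule names are not reported here. Alternatives were DESeq2 1.42.0, limma-trend in limma 3.58.1, other scalings, filters and blocks, and each replicate left out. Subtracting the sensory receptor level and the DR4 windows were chosen after values or letters were seen. Figures were drawn with matplotlib 3.10.9.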

Additional observations from a re-analysis of the deposited data

Results flagged for a closer look

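Of 18 groups of 4 samples examined (8 tested genes of the set and *Zc3h12a*, in each group), 1 had a sample far from the other 3, where chance gives 0.9. *Zc3h12a* was at 24.9 CPM in scrambled RNP replicate 1 and at 37.1 to 39.3 CPM in the other scrambled RNP samples, a gap of 0.846 of the group's range.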

How the results depend on the processing

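The count of genes of the set past both thresholds, 0 as reported, was 2 (*Abcg1* and *Mylip*) in DESeq2's test, where 0.348% of all genes were called lower, and 2 (the same genes) when the replicate effect was removed before limma-trend, where 0.529% were; it was 1 (*Abcg1*) with no low-count filter, and 0 to 2 when 1 replicate was left out, with 2 without replicate 2 (0.378% of all genes called lower). Genes at an unadjusted p at or under 0.05 numbered 1 (*Mylip*) with no replicate block, beside 0.596% of all genes lower at that p, and 2 to 5 when a replicate was left out, beside 0.927% to 3.23%. The block or pairing thus changed this count, and with no replicate block 0 genes passed both thresholds. After removal of the replicate effect the p-values are too small, since that fit does not count the replicate terms. The median log2 fold change of the set kept its sign under all 12 settings, from -0.29 without replicate 4 to -0.57 without replicate 3 (with *Nr1h3* then tested too), and the log2 ratio of *Nr1h2* to *Nr1h3* was 0.16 to 0.62 when a replicate was left out. Values near 0 changed sign. Over the left-out replicates *Nr1h2* ran from -0.10 to 0.028, and it was at 0.0041 with no low-count filter and at 0.00084, 0.028 and 0.011 without replicate 1, 2 and 4. *Smpdl3a* was at -0.16 without replicate 3 and up to 0.31 without another. With no low-count filter the list medians were 0.0081 (partners and cofactors), 0.11 (other targets), 0.024 (sterol ligand enzymes, -0.21 at 10 or more counts in every sample) and 0.083 (lipoprotein uptake), and with upper-quartile factors other targets were at 0.0014. Leaving out a replicate moved the medians from -0.034 to 0.016 (partners and cofactors), -0.16 to 0.091 (other targets), -0.18 to 0.026 (sterol ligand enzymes), -0.086 to 0.00040 (lipoprotein uptake) and -0.027, or -0.010, to 0.11 (sterol trafficking and storage). The causes were not tested. Depth limits *Nr1h3*, *Pltp*, *Smpdl3a* and *Abca1*.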
